A study of Mus musculus with 4 samples.

Results

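In the Mll3/4 deleted Kit+ bone marrow library, 10185 cells carried pro-B cell transcripts while no productive immunoglobulin chain was listed for their barcode. The cells were chosen by measured values. A barcode first had to reach 1000 UMIs (unique molecular identifiers, each standing for 1 captured transcript) and 500 genes, with no more than 10% of its UMIs mitochondrial. It also needed at least 3 UMIs of Cd79a, at least 3 UMIs of Vpreb1 and Igll1 together and fewer than 5 UMIs of Elane. Finally it had to be absent from the deposited table of V(D)J contigs, all of which are productive. A cell absent from that table may still hold a nonproductive or partial chain. Of the 14915 deleted cells that passed the filter on depth, 13410 passed the gate on these genes (89.9%), and 10185 of those had no contig. Another 3213 gated cells had an IGH (heavy chain) contig and served as the comparison in the same library. The last 12 had a light chain contig without a heavy chain. In all 4 libraries together 55216 cells passed the filter on depth. The contig table and the gate genes chose the cells, so the values below are descriptions and carry no test.

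The study sequenced CD45.2+ bone marrow cells of transplanted mice by 10x 5′ single-cell RNA-seq with matched V(D)J libraries, 10 weeks after transplantation. Its 4 groups were control Kit+, Mll3/4 deleted Kit+, Mll3/4SI Kit+ and control B220lo cells, each with 1 library. MLL3 and MLL4 (genes Kmt2c and Kmt2d) are histone H3 lysine methyltransferases that act at enhancers. The labels do not expand "SI" and do not name the Cre driver, its promoter, or how many mice went into a library. All groups share the transplantation and the CD45.2 sort. With 1 library a group and cells that are not replicates, no difference could be tested. The 95% intervals given (exact Poisson for counts, exact Clopper-Pearson for shares, exact conditional for ratios) cover counting error only.

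A pro-B cell builds its heavy chain gene in steps: the RAG1/RAG2 recombinase first joins a D segment to a J segment and then a V segment to that product, while the polymerase TdT (gene Dntt) adds bases at the joints. The surrogate light chain, encoded by Vpreb1 and Igll1, pairs with the first heavy chain in the pre-B receptor, whose signal drives proliferation and then opens the light chain genes. The V genes spread over a long stretch of the locus, and joins to the distant ones depend on folding of that stretch towards the J genes.

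The deleted library held 15091 barcodes and 130424242 UMIs. Cells without a contig had a median of 6662 UMIs and 2624 genes (5th to 95th percentile 2424 to 18299 UMIs), and 0.778% of their UMIs were mitochondrial in the median cell. Cells with an IGH contig had 6918 UMIs, 2729 genes and 0.775%, so the groups compared within the library had closely similar depth. Among the barcodes without a contig, 167 (1.64%) also occurred in the control Kit+ library and 165 (1.62%) in the Mll3/4SI Kit+ library. In the control B220lo library 238 (2.34%) occurred, and 37 of them passed the same gate there. These libraries held 12205, 12345 and 16861 barcodes. The Scrublet doublet caller marked 0 of 14915 cells by its own threshold and had therefore not worked, so no doublet was removed. A score above 0.25 was held by 6.97% of the cells without a contig and by 10.6% of those with an IGH contig. A reference for background was read in 484 cells of the same library with 5 or more Elane UMIs. It is called the granulocyte reference (median 18714 UMIs). Cells that also reached the gate's limits for Cd79a and for Vpreb1 with Igll1 were left out of it, which keeps these genes low there. Free RNA and the own transcripts of these cells were not told apart.

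Most gated cells of the deleted library lacked a contig: 76.0% (interval 75.2 to 76.7%). Depth moved this share little. It was 79.2% among gated cells below 2000 UMIs, 77.7% from 4000 to below 6000 UMIs and 68.5% at 20000 UMIs or more. Next to the gate's limits it was similar. Of the 119 cells with exactly 3 Cd79a UMIs 76.5% lacked a contig, against 74.2% of the 151 cells with 2, just outside the gate. For Vpreb1 and Igll1 together the shares were 78.4% of 74 cells at 3 UMIs and 79.2% of 53 cells at 2. For Elane they were 71.9% of 32 cells at 4 UMIs and 9 of 12 cells at 5. Among all 817 cells outside the gate with fewer than 5 Elane UMIs, 85.3% had no contig (interval 82.7 to 87.7%).

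**Figure D1:**
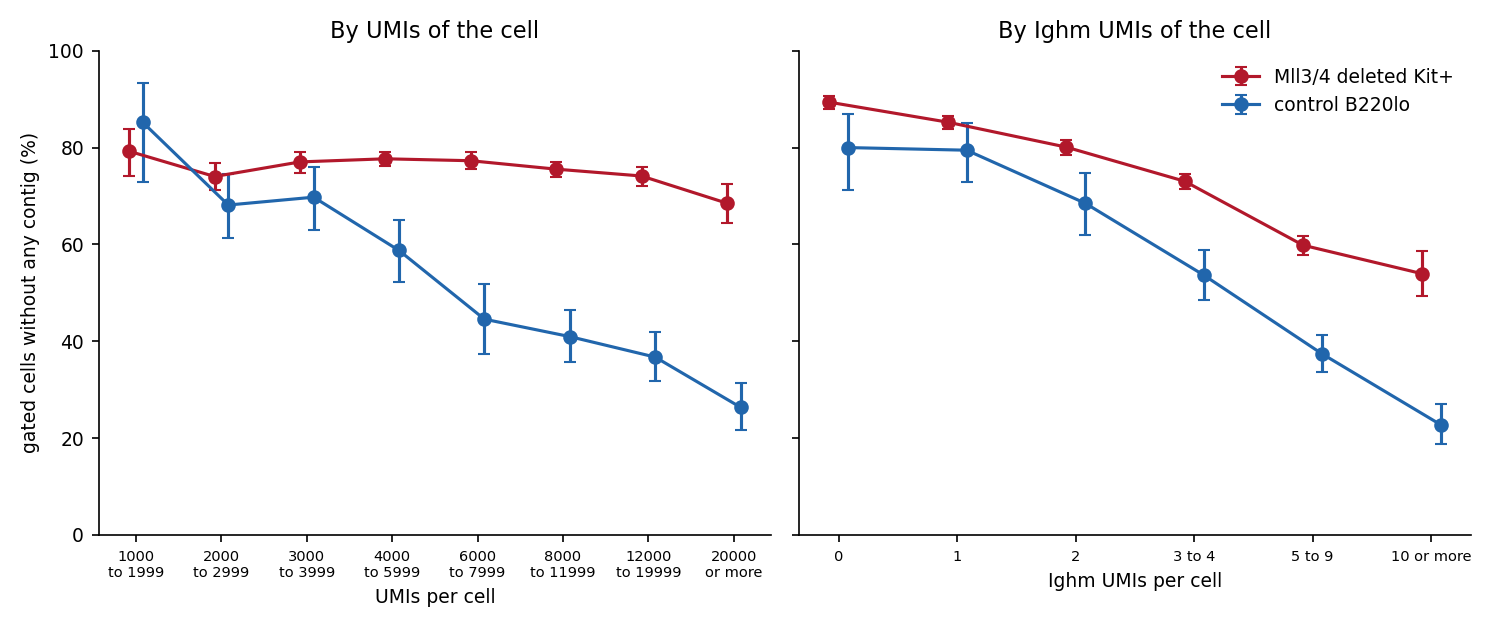
Percent of gated cells without a contig (y axis) by UMIs per cell (left) and by Ighm UMIs per cell (right) in the deleted Kit+ and control B220lo libraries; points are shares and bars exact 95% binomial intervals. By depth the deleted library stays between 68.5% and 79.2% while control B220lo goes from 85.2% in the shallowest cells to 26.4% in the deepest, and by Ighm UMIs both go down.

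The same gate in the control B220lo library, sorted by a B-lineage surface marker, kept 1931 of 16329 cells. Of these 915 had no contig (47.4%, interval 45.1 to 49.6%), 953 had an IGH contig and 63 had a light chain contig alone. The share there went from 85.2% below 2000 UMIs to 26.4% at 20000 UMIs or more, and the median depth of its cells without a contig was 5801 UMIs against 11864 with one. The gate held 16 cells of the control Kit+ library and 5 of the Mll3/4SI Kit+ library, none with a contig, too few for a comparison. Genotype, sort and transcripts of sex chromosomes differ together between the deleted and the control B220lo library. Summed over 4 Y-linked genes the cells without a contig gave 146 CPM (a gene's UMIs scaled to a common total for each group of cells) in the deleted and 2.42 in the control B220lo library, and Xist gave 0.109 and 571 CPM. The part of each in the differences between these libraries cannot be told apart. Gated control B220lo cells also held transcripts of later B-cell stages. The kappa constant gene Igkc stood at 31.2 CPM without and 162 CPM with an IGH contig, and Ms4a1 (CD20) at 18.3 and 59.8 CPM. Of 12 later pre-B and B markers with 20 UMIs there, 7 had a ratio below 1 and 5 above. Stage was not matched between the groups of that library.

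Pro-B markers other than Cd93 were present in the cells without a contig at levels close to those with an IGH contig. Summed over the 15 pro-B markers (among them Cd79a, Ebf1, Pax5, Rag1 and Dntt) they held 17928 CPM, against 17742 CPM in cells with an IGH contig and 360 CPM in the granulocyte reference. The gate genes Cd79a, Vpreb1 and Igll1 supplied 9731 of the 17928 CPM, and the reference was defined as failing that gate, so that much of the contrast with it was set by the choice of cells. Outside the gate genes, Ebf1 stood at 1844 CPM without a contig and 44.3 CPM in the reference, and Dntt at 1308 and 14.2 CPM. Cd93, a surface receptor of early B cells, was low: 2.55 CPM without and 2.89 CPM with an IGH contig, against 175 CPM in control B220lo cells without a contig. The markers of later pre-B and B cells were uneven. Il2ra, the CD25 chain that marks pre-B cells, was listed at 0 UMIs in both groups. Cd2 had 7 UMIs over all 10185 cells, Cd22 had 10 and Ms4a1 (CD20) had 4, whereas H2-Ab1 and Cd37 of the same list stood at 222 and 480 CPM. The kappa constant gene Igkc had 5 UMIs in each group.

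Most marker lists of other cell types had low sums or sums close to those of the cells with an IGH contig. The 10 T and NK markers summed to 4.60 CPM in cells without a contig and 3.87 CPM in cells with one, with Cd3e, Cd3g, Ncr1, Il2rb and Gzma at 0 UMIs in the former. Megakaryocyte markers summed to 1.14 and 2.57 CPM, mast and basophil markers to 1.96 and 1.81 CPM, and monocyte markers to 20.7 and 31.1 CPM. Plasmacytoid dendritic cell markers summed to 862 and 874 CPM with the defining gene Siglech at 0 UMIs, and plasma cell markers to 1604 and 1538 CPM with Tnfrsf17 at 0 UMIs. The 12 granulocyte markers summed to 284 and 645 CPM. Those of late neutrophils came from a few cells and are given with the gene-by-gene comparison. The early granule genes Elane, Prtn3 and Mpo had a UMI in 2973, 2490 and 1886 of the cells without a contig. The gate kept Elane below 5 UMIs per cell, so its thin spread was set by the choice of cells. Cells with 3 or more Mpo UMIs held 43.2% of its UMIs without a contig and 21.0% with an IGH contig, and 1 cell without a contig had 163. For Prtn3 those shares were 19.6% and 16.5%. Elane stood at 45.0 and 42.2 CPM, Prtn3 at 41.5 and 37.5 CPM and Mpo at 43.2 and 31.5 CPM. The 10 erythroid markers summed to 205 and 194 CPM, with Car2 at 93.7 and 108 CPM, Blvrb at 34.4 and 37.0 CPM and Tfrc at 22.7 and 22.5 CPM. Members of that list that differed included the globins Hbb-bt, at 34.5 and 0.723 CPM, and Hba-a1, at 5.03 and 0.217 CPM, and Car1, at 11.6 and 21.2 CPM. The part of these transcripts in the comparisons was not tested. Markers of stem and progenitor cells summed to 611 and 614 CPM, a level that included Kit at 365 and 378 CPM. Kit encodes the receptor on which the cells had been sorted.

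Compared gene by gene, the deleted cells with and without an IGH contig had nearly the same transcriptome. CPM were computed from UMIs summed over each group (82649690 UMIs without a contig, 27660530 with), and the log2 ratio used CPM plus 1. A gene counted as 2-fold different when the ratio passed 2-fold and the higher group had at least 100 UMIs. Of 12160 genes measured at that depth 10 were 2-fold higher without a contig (0.0822%) and 32 were 2-fold lower (0.263%), and 95.7% lay within 1.2-fold. The median absolute log2 ratio was 0.05. In the control B220lo library the same contrast gave 242 genes 2-fold higher (2.64%) and 103 lower (1.12%) of 9161, with 67.7% within 1.2-fold and a median absolute log2 ratio of 0.17. Summed UMIs there were 7860259 without and 13407919 with an IGH contig, fewer than in the deleted library. The limit of 100 UMIs thus lay at a higher CPM, counting error was larger and the added 1 CPM weighed less. How far this widened the spread was not tested. Depth per cell also differed between the groups there. With CPM averaged over UMI bins, each bin weighted by its cells without a contig (matched UMI bins below), the counts were 226 higher and 183 lower. Shallow cells count for more under these weights than in summed UMIs.

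Immunoglobulin V genes and transcripts of a few cells made up nearly all of the 2-fold differences in the deleted library. Of the 10 genes higher without a contig 5 were Ighv genes, and of the 32 lower 21 were, with 95 Ighv genes among the 12160 measured. Among the 12052 genes outside the immunoglobulin and T cell receptor loci these shares were 0.0415% higher and 0.0913% lower. The other 5 higher genes were the globins Hbb-bs, Hbb-bt, Hba-a1 and Hba-a2, which carry oxygen in red cells, and Retnlg, a neutrophil transcript. The other 11 lower genes were Cd74, the invariant chain of class II antigen presentation, and 10 genes of neutrophils and monocytes led by Ngp, Camp and Ltf.

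The globin and neutrophil values rested on a few cells. In cells without a contig 8 cells with 10 or more globin UMIs held 98.9% of the 16555 globin UMIs, and no cell with an IGH contig had as many. For Ngp, Camp, Ltf, S100a8 and S100a9 together, 9 cells without a contig held 90.0% of 10680 UMIs and 6 cells with an IGH contig held 97.3% of 14148 UMIs. Ngp, a neutrophil granule protein, thus stood at 16.0 CPM without a contig and 94.7 CPM with one. S100a9, a calcium-binding protein of neutrophils, stood at 58.9 and 191 CPM. Leaving out the 26 cells without and 10 cells with an IGH contig that had 3 or more UMIs of Hbb-bs, Hbb-bt, S100a8 or S100a9, an alternative chosen after the values were seen, left 5 genes higher and 22 lower. With immunoglobulin and T cell receptor genes also not counted, 0 genes were higher and 1 was lower. These counts use CPM plus 1, which draws the ratios of low genes towards 1. The 1 was Cd74, at 2.04 CPM without and 10.4 CPM with an IGH contig, where 8 cells with an IGH contig held 268 of its 285 UMIs in that group.

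The largest ratios beyond these belonged to genes of low level. Fn1 (fibronectin) stood at 2.07 CPM without a contig and 0.578 CPM with one, and 1 cell held 61 of its 171 UMIs. Gimap3, a GTPase of lymphocytes, stood at 2.25 and 0.687 CPM. Btk, a kinase that passes on pre-B receptor signals, stood at 3.84 and 1.99 CPM (ratio 1.93, interval 1.44 to 2.62), and the axon guidance receptor Robo2 at 8.66 and 5.24 CPM. Pcdh9, a protocadherin, stood at 7.32 and 3.98 CPM, with 72.7% of its UMIs in cells that had 3 or more. Serpina3g (2.64 and 1.23 CPM), a serine protease inhibitor, and the neurofilament gene Nefh (4.50 and 2.53 CPM) complete the highest. Apart from granulocyte genes and Cd74 the lowest was Nrgn, a calmodulin-binding protein, at 2.54 and 5.68 CPM. The log2 ratio of Nrgn was -0.91 (-1.55 in matched UMI bins and -0.32 with a pseudocount of 10 CPM), and 87.6% of its UMIs without a contig came from cells with 3 or more. Without the added 1 CPM the ratio was 3.58 for Fn1, 3.28 for Gimap3 (interval 2.04 to 5.57), 2.15 for Serpina3g and 0.448 for Nrgn. These genes were past 2-fold in plain CPM but not counted as such.

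At higher levels, 4 genes picked after their values were seen stood out from the narrow spread. Auts2, a regulator of transcription best known from neurons, was at 145 CPM without a contig and 101 CPM with one (ratio 1.43, interval 1.38 to 1.49). Camk2b, a calmodulin-dependent kinase subunit, was at 72.9 and 50.1 CPM (ratio 1.45), Arpp21 at 24.1 and 15.4 CPM (ratio 1.56) and Fstl5 at 15.3 and 10.1 CPM (ratio 1.51). Cells with 3 or more UMIs of the gene held 87.9% of the Auts2 and 67.4% of the Camk2b UMIs without a contig.

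**Figure D2:**
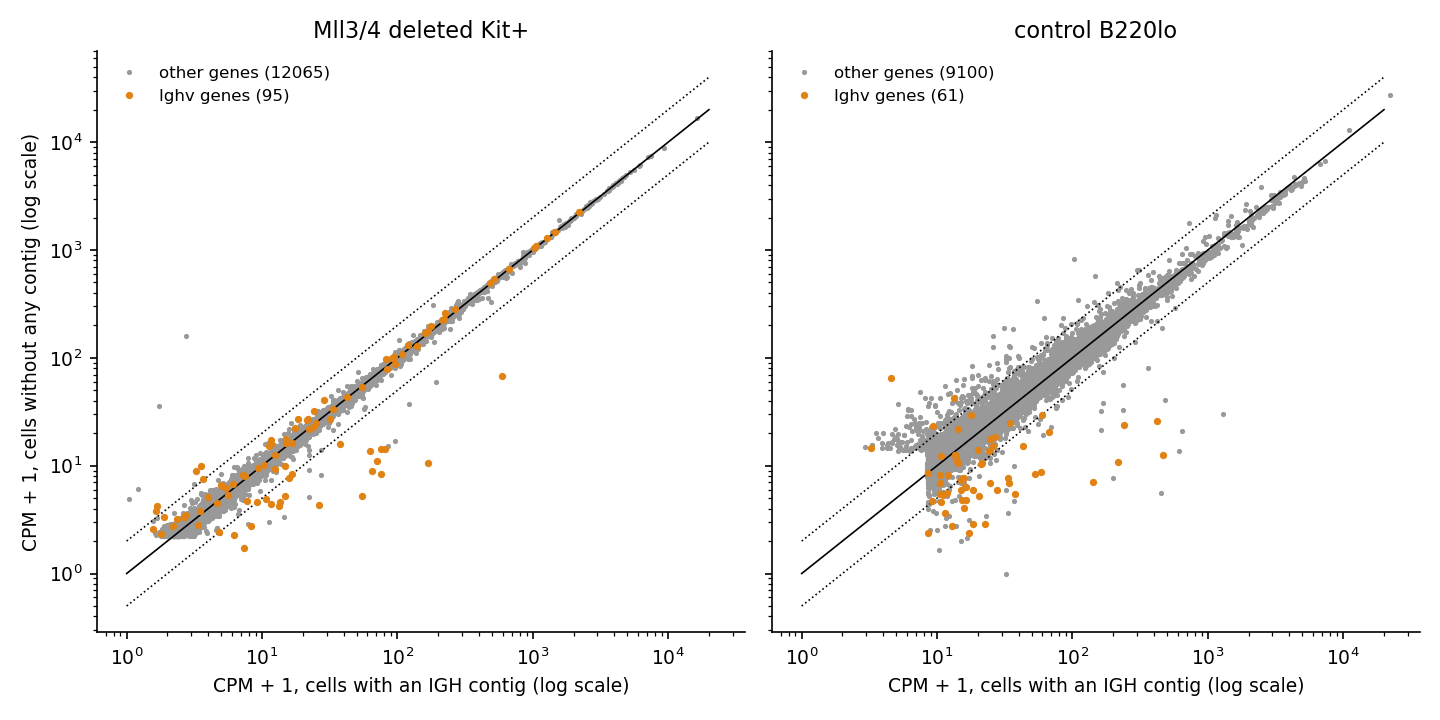
Each point is a gene with at least 100 UMIs in the higher group, at its CPM plus 1 in cells with an IGH contig (x axis, log scale) and without a contig (y axis, log scale), for each of the 2 libraries; Ighv genes are coloured, the solid line is equality and the dotted lines are 2-fold. In the deleted library 95.7% of genes lie within 1.2-fold of equality, and in control B220lo 67.7% do. Fewer UMIs were summed in control B220lo, so counting error is larger there.

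The genes of recombination were at nearly the same level with and without an IGH contig in the deleted cells. Rag1 stood at 208 CPM without a contig and 210 CPM with one (ratio 0.993, interval 0.964 to 1.02), and Rag2 at 162 and 169 CPM (ratio 0.960). Dntt stood at 1308 and 1353 CPM (ratio 0.967, interval 0.956 to 0.979). Over the 14 genes of the V(D)J recombination list, which adds the end-joining factors Xrcc4, Xrcc5, Xrcc6, Lig4 and Prkdc, the median log2 ratio was 0.02, beside 0.00 over all genes with at least 20 UMIs, and none was 2-fold different, where 0.342% of all those genes were, so that a list of this size would hold none at that share. The 3 genes named differed in control B220lo cells: Rag1 stood at 127 without and 32.7 CPM with an IGH contig (ratio 3.89), Rag2 at 124 and 33.6 CPM (ratio 3.68), and Dntt at 822 and 102 CPM (ratio 8.07). Matched by UMI bins, the log2 ratio there was 2.08 for Dntt, 0.87 for Rag1 and 0.94 for Rag2, where the unmatched values of Rag1 and Rag2 were 1.93 and 1.85. The control groups were not matched for stage.

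Receptors for growth factors behaved alike. Il7r, the receptor for the main cytokine of early B cells, stood at 407 CPM without and 437 CPM with an IGH contig in the deleted library, and Kit at 365 and 378 CPM. Flt3, a receptor of earlier progenitors, was at 38.7 and 32.4 CPM (interval of the ratio 1.11 to 1.29). Control B220lo cells held Kit at 31.6 and 5.37 CPM and Flt3 at 21.9 and 5.97 CPM, and Il7r at 282 and 289 CPM. The log2 ratio of Kit there was 2.35, 1.68 in matched UMI bins and 1.43 with a pseudocount of 10 CPM. The 9 cytokine receptors with 20 UMIs had a median log2 ratio of 0.04 in the deleted library.

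Transcription factors that set B-cell identity showed the same closeness. Ebf1 and Pax5, which start and hold the B-cell programme, stood at 1844 and 324 CPM without a contig and at 1891 and 331 CPM with one. Foxo1, which acts on the Rag genes, was at 989 and 964 CPM, and Lef1 at 423 and 448 CPM. Erg, an ETS factor of stem cells and pro-B cells, was at 466 and 498 CPM, against 332 and 53.9 CPM in control B220lo cells (log2 ratio 2.60, and 1.88 in matched UMI bins). The 20 factors had a median log2 ratio of -0.01, beside 0.00 over all genes with at least 20 UMIs. Hoxa9 (101 and 94.8 CPM) and Meis1 (85.6 and 87.1 CPM), homeobox factors of progenitors added after their values were seen, were likewise close, and stood at 6.87 and 12.2 CPM in control B220lo cells without a contig.

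Parts of the pre-B receptor were abundant in both deleted groups. Vpreb1 stood at 2865 CPM without and 2772 CPM with an IGH contig, Igll1 at 2782 and 2656 CPM, Cd79a at 4085 and 4019 CPM and Blnk at 957 and 954 CPM. Vpreb1, Igll1 and Cd79a had also been used in the gate. Of 18 genes in the receptor and signalling list 17 had 20 UMIs, with a median log2 ratio of -0.04. Several signalling genes were far lower in deleted than in control B220lo cells without a contig: Btk 3.84 against 112 CPM, the kinases Syk 34.3 against 263 CPM and Lyn 32.3 against 211 CPM, and the phospholipase Plcg2 18.4 against 170 CPM. Other members of the list went the other way, with Blnk at 957 against 649 CPM and the gate gene Cd79a at 4085 against 1872 CPM. All 18 genes, the gate genes among them, summed to 13488 against 11245 CPM. Vpreb2, a near copy of Vpreb1 whose reads may be split between them, was at 0.387 against 233 CPM, and Ikzf3, which rises at the pre-B stage, at 0.544 against 98.3 CPM.

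**Figure D3:**
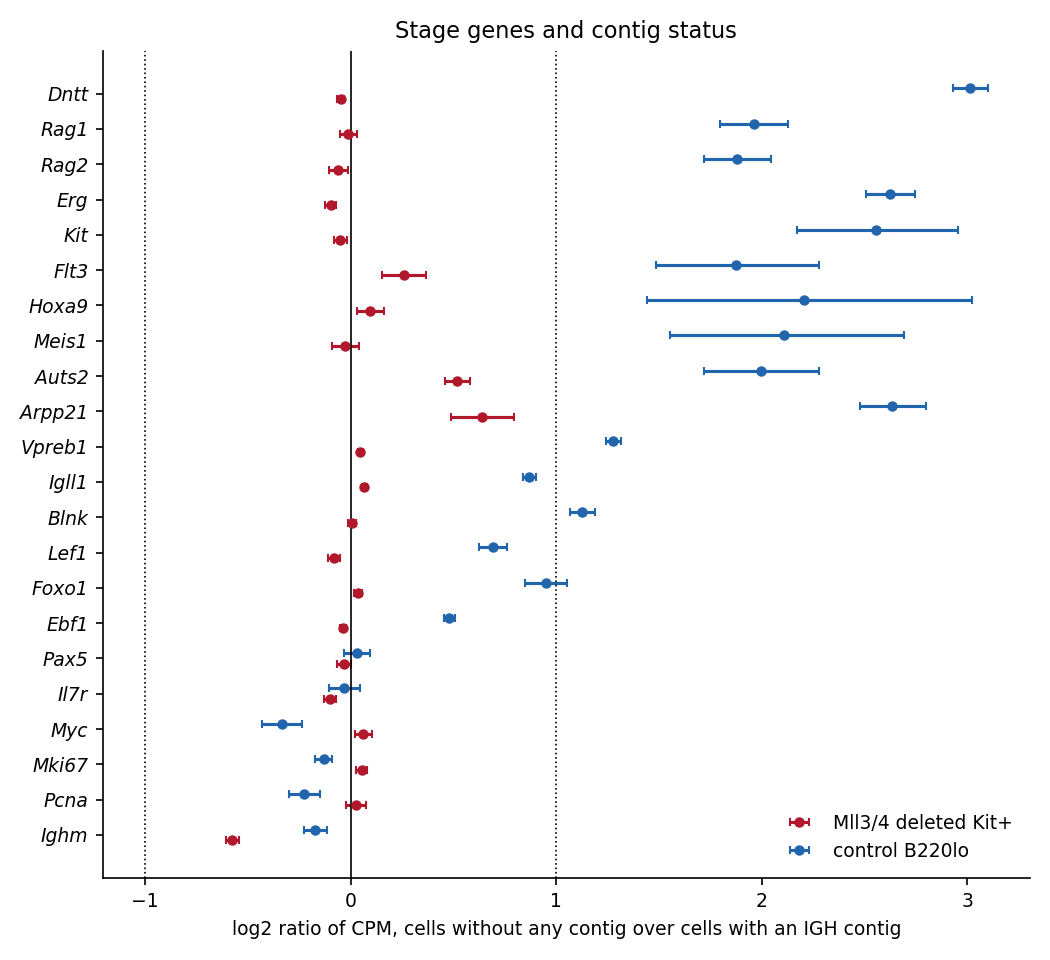
Log2 ratio of CPM (x axis), cells without a contig over cells with an IGH contig, for named genes in the deleted Kit+ and control B220lo libraries; bars are exact 95% conditional intervals, the solid line marks no difference and the dotted lines 2-fold. The deleted points for Rag1, Rag2, Dntt, Kit and Erg lie close to 0, while the control points lie to the right, up to a ratio of 8.07 for Dntt.

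The share of cells without a contig hardly varied with these genes. With each cell thinned to 2000 UMIs (229 cells without and 60 with an IGH contig were shallower and left out), cells with no Dntt UMI lacked a contig in 78.3% and cells with 5 or more in 75.2%. For Rag1 and Rag2 together 4691 of 6169 cells lacked a contig at 0 UMIs and 2323 of 3096 at 2 or more, for Erg 77.9% and 73.7%, and for Il7r 76.8% and 74.2%. The share in control B220lo cells went from 29.1% to 88.4% with Dntt, from 37.5% to 81.0% with Rag1 and Rag2 and from 34.5% to 85.1% with Erg.

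Ighm, the constant gene of the first heavy chain, was lower without a contig. Of the 12 immunoglobulin constant genes listed, Ighm and Ighd had at least 20 UMIs. The cells without a contig held 27219 Ighm UMIs, 329 CPM (interval 325 to 333), and the cells with an IGH contig 491 CPM (482 to 499). The ratio was 0.671 (0.658 to 0.685) and the log2 ratio -0.57. At 2000 UMIs per cell 48.6% of cells without a contig had an Ighm UMI, against 64.2% with an IGH contig and 14.2% of the granulocyte reference. Unthinned the shares were 83.3%, 93.8% and 51.0%. Of 57 cells in an erythroid reference of the same library (3 or more Car1 UMIs and at least 1 of Klf1, outside the gate, median 15698 UMIs) 1.75% had an Ighm UMI at that depth and 8.77% unthinned. Ighm stood at 79.6 CPM in the granulocyte and 5.09 CPM in the erythroid reference, so the granulocyte value is above the lower of the background levels measured. Ebf1 differed between these references too, at 44.3 and 9.32 CPM. Ighm (chromosome 12, 113418558 to 113422730, minus strand, mm10) is read by the gene count and by the contig assay alike, so its level is close to what chose the cells. The share without a contig went down with Ighm UMIs, from 89.4% of cells at 0 UMIs to 59.8% at 5 to 9 UMIs. Even at 10 or more Ighm UMIs 251 of 465 cells (54.0%) had no contig, against 22.8% in control B220lo cells. Ighm was at 511 and 576 CPM in control B220lo cells (log2 ratio -0.17, and -0.71 in matched UMI bins). Ighd stood at 8.81 and 9.80 CPM in the deleted groups.

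V gene transcripts were nearly as plentiful without a contig as with one. Summed over the 185 Ighv genes in the files, cells without a contig held 12043 CPM (interval 12020 to 12067) and cells with an IGH contig 12888 CPM. The median cell had 87 Ighv UMIs from 19 V genes without a contig and 98 UMIs from 19 V genes with one. The granulocyte reference held 85.6 CPM and a median of 1 V gene per cell. Control B220lo cells held 787 CPM without and 2689 CPM with an IGH contig, with a median of 2 V genes per cell in both. Many Ighv genes are near-identical, so the gene to which a read was assigned is uncertain.

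Most of these transcripts came from V genes far from the J genes. Distances were taken from the Ighj gene nearest the V genes, on mm10. The 29 V genes at 2000 to 2500 kb held 66.7% of the Ighv UMIs in cells without a contig, 8033 CPM against 7860 CPM with an IGH contig. Ighv1-66 (chromosome 12, 115593110 to 115593591, minus strand, 2163 kb away) had 186037 UMIs and a UMI in 99.6% of the cells without a contig. It stood at 2251 CPM without and 2202 CPM with an IGH contig, 16.1 CPM in the granulocyte reference and 28.2 CPM in control B220lo cells without a contig. Ighv1-75 followed at 1459 CPM in both groups, then Ighv1-23 at 1290 and 1261 CPM, Ighv1-76 at 1093 and 1054 CPM and Ighv1-62-3 at 1037 and 1018 CPM. None of these 5 V genes was in an IGH contig of a gated deleted cell.

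As a group, the V genes nearest the J genes were lower without a contig. The 35 V genes within 500 kb summed to 263 CPM without a contig and 1380 CPM with an IGH contig (ratio 0.191, interval 0.188 to 0.194), and they supplied 2830 of the 3213 IGH contigs (88.1%). From 500 to 1000 kb the sums were 347 and 402 CPM (ratio 0.863, 266 contigs). Beyond that the ratios were 1.01 at 1000 to 1500 kb, 1.08 at 1500 to 2000 kb, 1.02 at 2000 to 2500 kb and 1.06 at 2500 to 3000 kb, where 96, 17, 3 and 1 contigs lay. The contigs of control B220lo cells were spread, with 156, 175, 224, 163, 217 and 18 from the nearest to the farthest bin. Of the 21 Ighv genes 2-fold lower without a contig in the deleted library 16 lay within 500 kb, of 19 measured there. A V gene that is used in a contig is by the choice of the groups higher in cells with one.

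Ighv5-2 (chromosome 12, 113578504 to 113578990, minus strand, 149 kb away) was the V gene of 1383 contigs (43.0%). It stood at 66.4 CPM without and 588 CPM with an IGH contig (ratio 0.113), and Ighv5-15, in 343 contigs, at 9.61 and 168 CPM. Ighv2-7, in the same bin with 7 contigs, stood at 78.0 and 83.0 CPM. The 5 Ighv genes higher without a contig were Ighv3-1 (8.94 and 2.53 CPM, ratio 3.53), Ighv1-17, Ighv3-8, Ighv3-3 and Ighv3-2. None lay within 500 kb, where 19 of the 95 measured Ighv genes lay, a share at which a set of 5 can hold none. Ighv3-1, at 535 kb, was in 0 contigs of either library and stood at 64.4 and 3.58 CPM in control B220lo cells.

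**Figure D4:**
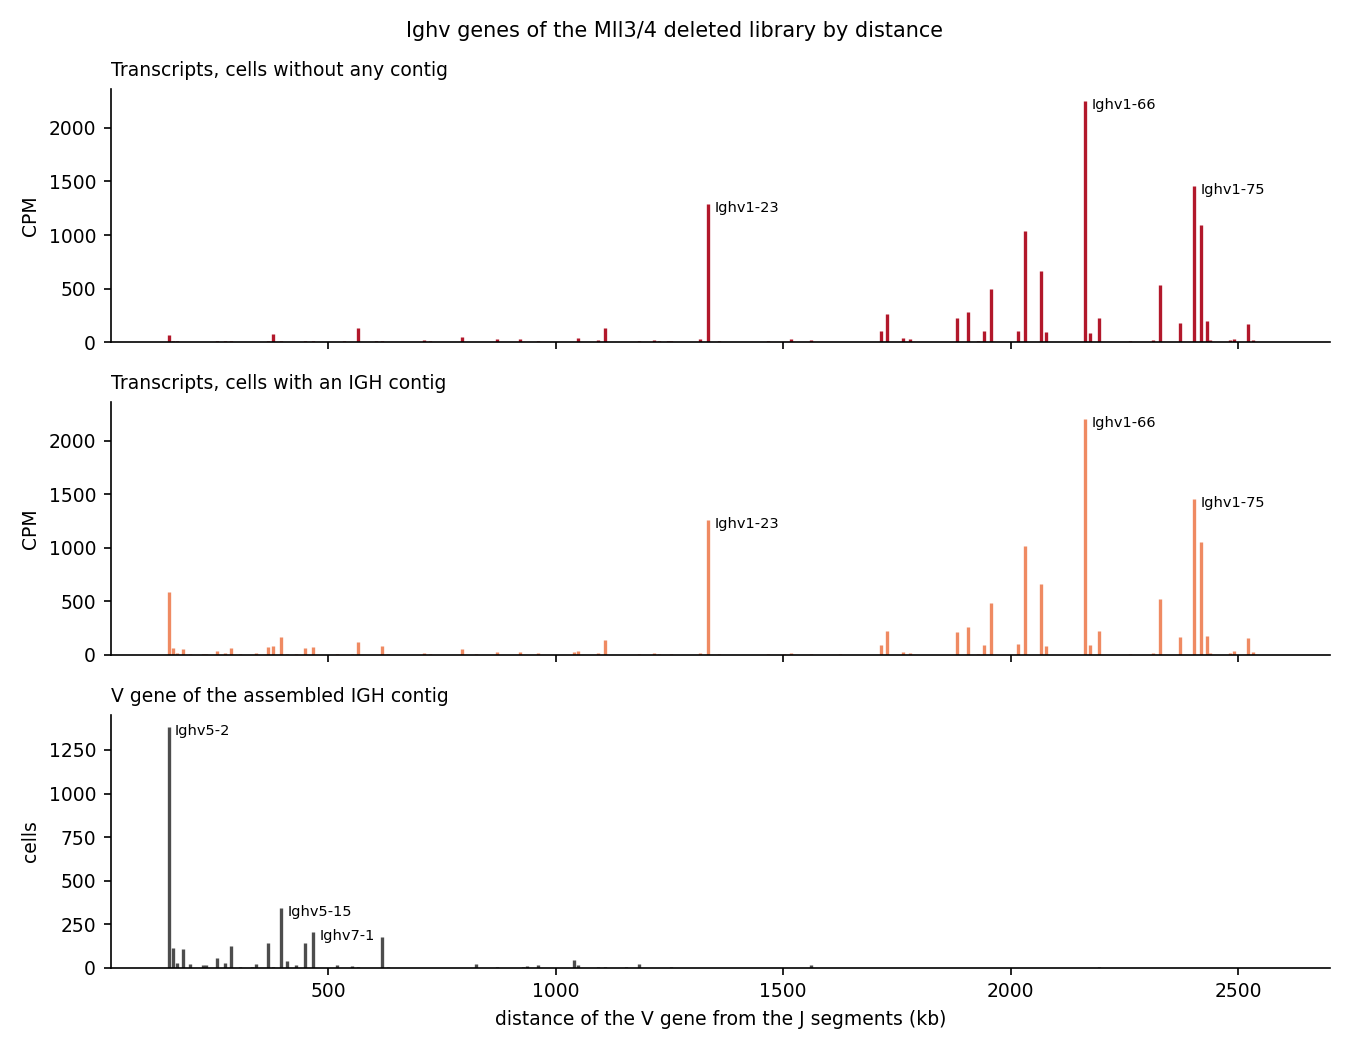
Ighv genes of the deleted library by distance from the J genes in kb (x axis), with bars for CPM in cells without a contig (top), CPM in cells with an IGH contig (middle) and the number of cells whose IGH contig uses the gene (bottom). Transcripts are highest at Ighv1-66 in both groups, while contigs gather within 500 kb, led by Ighv5-2 with 1383 cells.

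Cell by cell, a strong single V gene near the J genes was rare without a contig. The groups were split by contig, and 2830 of the 3213 IGH contigs use a V gene of this bin. A difference in this direction therefore followed from the choice of cells. A gene of the 35 within 500 kb reached 5 UMIs in 535 of 10185 cells without a contig (5.25%, interval 4.83 to 5.70%), in 2464 of 3213 cells with an IGH contig (76.7%) and in 2 of 484 reference cells. In the cells with an IGH contig that V gene was the contig's own in 2445 (99.2%). Among the 2830 cells whose contig V lay in the bin, 87.0% reached 5 UMIs of one. In the 535 cells without a contig the gene was Ighv5-2 in 208 and Ighv2-7 in 83, and 19 V genes occurred in all. Ighv2-7 was the V gene of 7 contigs, and 48 cells with an IGH contig reached 5 UMIs of it. In control B220lo the shares were 3.61% without and 16.6% with an IGH contig. There the contig V lay in the bin in 156 of 953 cells, and 92.3% of those reached 5 UMIs of one.

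Other segments of the antigen receptor genes gave few UMIs. The 17 Ighd segment genes were listed at 0 UMIs in both deleted groups, and the 4 Ighj genes summed to 4.49 CPM without and 4.84 CPM with an IGH contig (ratio 0.927, interval 0.759 to 1.14). Ighj4 supplied 298 of the 371 Ighj UMIs without a contig (ratio 1.05). The ratio was 0.741 for Ighj3 (interval 0.383 to 1.51) and 0.567 for Ighj2 (interval 0.331 to 0.995), the latter on 39 and 23 UMIs. Igkv genes, the V genes of the kappa light chain, were at 88.9 and 75.1 CPM (ratio 1.18, interval 1.13 to 1.24) with a UMI in 20.7% of the cells without a contig. The Igkv genes of control B220lo cells were at 398 and 3756 CPM. Igl segments and constants together were at 0.169 and 2.24 CPM in the deleted groups, and Trav and Trdv genes at 0.436 and 0.470 CPM. The Igl values rested on 14 UMIs in 0.0785% of the cells without a contig and 62 UMIs in 0.124% of those with an IGH contig.

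The IGH contigs of the comparison cells repeated a small set of joints, which shows what the cells without a contig were compared with. A CDR3 is the stretch across the V-D-J joint, and 3213 cells carried 599 distinct CDR3 sequences from 46 V genes. Of these cells 1578 (49.1%, interval 47.4 to 50.9%) had a CDR3 ending in the same 20 bases, with IGHJ2, joined to 22 V genes in 54 CDR3 sequences. The tail occurred in 0 of 953 gated and 0 of 9810 IGH contigs in all of the control B220lo library, where 953 cells carried 942 distinct CDR3 sequences. The 8 commonest are shown 5′ to 3′ as deposited, with the shared tail in capitals, to show different V ends on 1 tail. The 2 without capitals lack it, and 1 of them uses IGHJ3.
IGHV5-2, 423 cells: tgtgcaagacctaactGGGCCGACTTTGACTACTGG
IGHV5-2, 358 cells: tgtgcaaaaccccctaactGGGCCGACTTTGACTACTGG
IGHV5-2, 224 cells: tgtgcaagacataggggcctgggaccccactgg
IGHV5-15, 159 cells: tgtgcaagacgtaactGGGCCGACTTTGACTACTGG
IGHV5-15 with IGHJ3, 122 cells: tgtgcaagacagctcaggctacgtgag
IGHV2-6-8, 102 cells: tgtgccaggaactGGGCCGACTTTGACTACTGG
IGHV7-1, 97 cells: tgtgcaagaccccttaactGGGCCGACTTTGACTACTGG
IGHV11-2, 94 cells: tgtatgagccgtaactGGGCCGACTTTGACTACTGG
Contigs of these cells had a median of 22 UMIs (quartiles 15 and 32), and 7 of them had fewer than 3. In the control B220lo library the median was 23 UMIs. The deposited tables list productive contigs, so a nonproductive or partial joint in a cell without a contig was not analysed here.

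Cycle transcripts were at nearly the same level without a contig as with one. Mki67 and Top2a, transcripts of cycling cells, stood at 564 and 546 CPM without a contig and 544 and 513 CPM with an IGH contig, and Pcna at 172 and 169 CPM. Of 20 S phase genes 19 had a ratio above 1 and of 20 G2/M genes 17 had, at small size: the median log2 ratio was 0.06 in each list. Under the match by UMI bins the G2/M median was 0.15. In control B220lo cells 19 of the 20 S phase genes had a ratio below 1 (median -0.27) and the G2/M median was -0.07. Depth and weighting moved both: the S phase median lay between -0.57 with each cell weighted equally and -0.10 in matched UMI bins, and the G2/M median between -0.42 and 0.18 under the same alternatives. Myc, a growth regulator, was at 256 and 245 CPM in the deleted groups.

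Within the cells without a contig, recombination transcripts and several other B-lineage transcripts went down as cycle transcripts went up. By S and G2/M list UMIs per cell thinned to 2000 UMIs, 41.2% of cells had 0 to 4, 20.2% had 5 to 9, 16.1% had 10 to 19 and 22.4% had 20 or more. From the lowest to the highest stratum Rag1 stood at 366, 271, 194 and 126 CPM, and Dntt at 1816, 1568, 1300 and 1157 CPM. Il7r stood at 625, 520, 408 and 360 CPM and Kit at 468, 434, 399 and 315 CPM. Summed Ighv genes stood at 17066, 13726, 10890 and 9535 CPM. Genes outside recombination went down too: Ebf1 from 2423 to 1728 CPM, Vpreb1 from 3553 to 2584 CPM, Foxo1 from 1241 to 906 CPM, Cd79a from 4723 to 3903 CPM and Bcl2l1 from 129 to 94.7 CPM between the lowest and the highest stratum. Levels of Pax5 (335, 334, 367 and 329 CPM) and Igll1 (2977, 3005, 2808 and 2881 CPM) moved less, and Myc was highest in the middle strata at 293 and 271 CPM. All of these values are shares of 1 total. Cells with an IGH contig had the same order for Rag1, at 372, 291, 182 and 122 CPM. Ighm was lower without a contig in each stratum, at 468, 372, 275 and 308 CPM against 660, 531, 483 and 512 CPM.

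**Figure D5:**
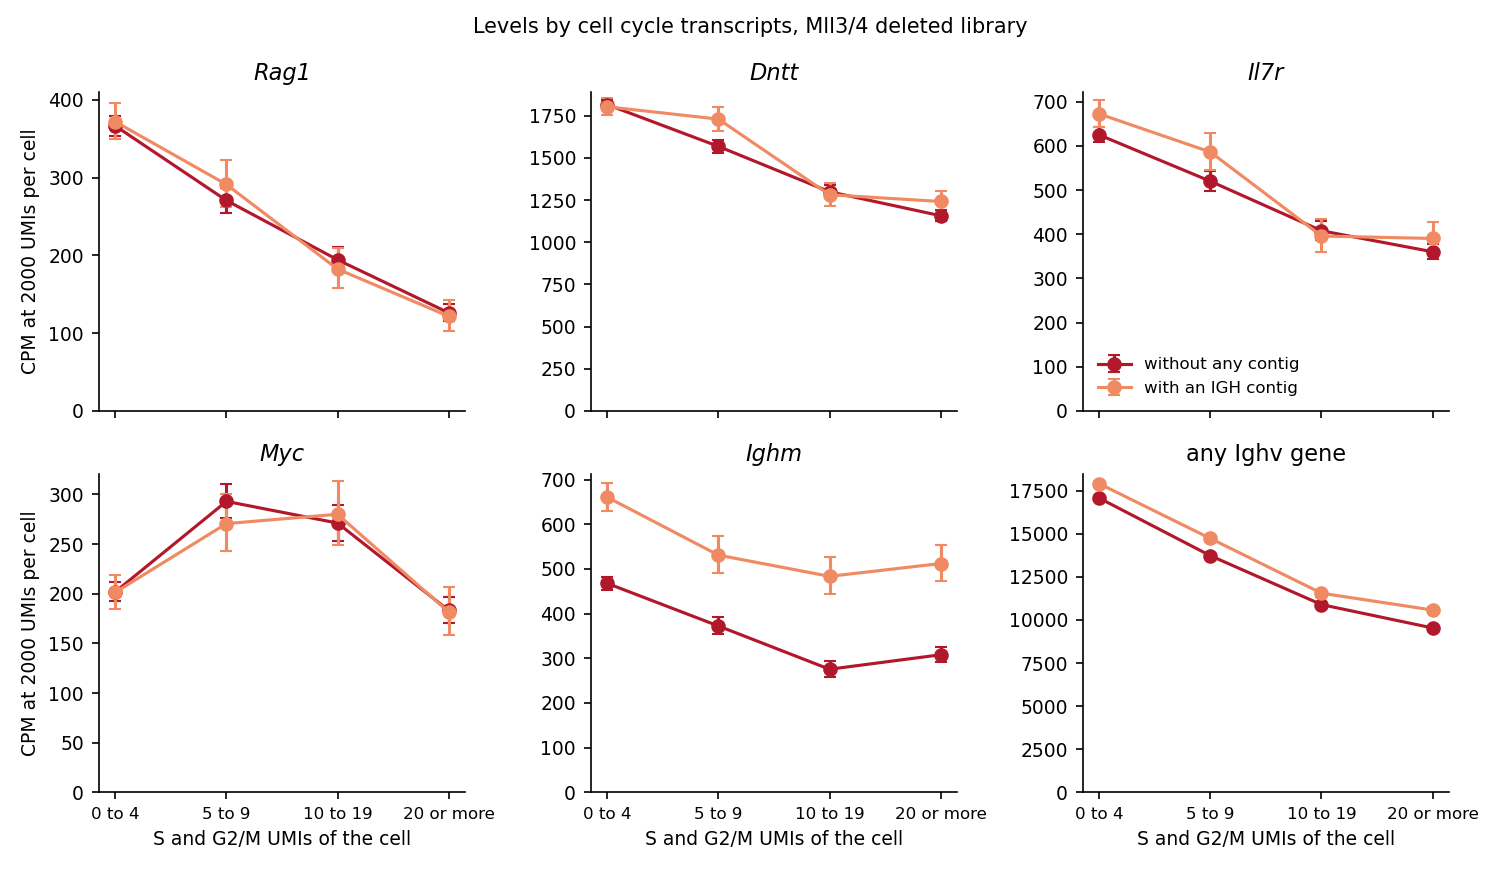
CPM at 2000 UMIs per cell (y axis) of 5 genes and of all Ighv genes together, by S and G2/M list UMIs of the cell (x axis), for deleted cells without a contig and with an IGH contig; bars are exact 95% Poisson intervals. Rag1 without a contig goes from 366 to 126 CPM, and Ighm lies below the cells with an IGH contig in each stratum.

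Genes of survival, stress and interferon response differed little within the deleted library. The 12 survival and death genes had a median log2 ratio of -0.01, with Bcl2 at 27.2 and 27.5 CPM and Bcl2l1 (BCL-XL) at 107 and 110 CPM. The 14 early response and stress genes had a median of 0.00. Of 10 interferon response genes 7 had a ratio below 1 (median -0.14), among them Isg15, a ubiquitin-like protein, at 61.5 CPM without and 69.8 CPM with an IGH contig. All 10 had a ratio above 1 in control B220lo cells (median 1.33) and 6 were 2-fold higher, where 4.57% of all genes with at least 20 UMIs were, with Isg15 at 21.0 and 7.23 CPM. Depth differed between the control groups, and this list was not matched by UMI bins.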

How the data were processed

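Single-cell 5′ RNA and V(D)J libraries of 4 groups were used, with Cell Ranger 7.1.0 and the mm10 build named in the submitters' processing notes. The deposited matrices hold whole UMI counts per gene and barcode, and the deposited contig tables list assembled productive chains. UMIs of the cells of a group were summed, scaled to CPM and compared as log2 ratios with a pseudocount of 1 CPM; no test was possible with 1 library per group. Gene positions came from GENCODE M21 (32158 of 32285 genes matched by identifier). The members and gene lists were chosen with earlier results of these data known. Named genes were the 12 highest and 12 lowest ratios with at least 100 UMIs in the higher group, leaving out immunoglobulin, T cell receptor, mitochondrial, ribosomal and unnamed genes, Xist and Y-linked genes, plus stage genes of the lists. Alternatives covered the gate, depth filter, doublet score, scaling, thinning to 2000 UMIs, UMI bins, pseudocount and low-count filter. Python 3.11.15, numpy 2.4.6, scipy 1.17.1, pandas 2.3.3 and scanpy 1.11.5 (Scrublet, expected rate 8%) were used.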

Additional observations from a re-analysis of the deposited data

How the results depend on the processing

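No paired analysis was possible because each group had 1 library. In the deleted library the share without a contig stayed between 75.7% and 76.7% under 9 alternatives. The Ighm log2 ratio of -0.57 was -0.62 with cells of a doublet score above 0.25 left out. The G2/M median of 0.06 was 0.15 in matched UMI bins, the S phase median lay between 0.04 and 0.10, and the V(D)J recombination median between -0.03 and 0.02, on either side of 0. The 10 genes higher and 32 lower became 6 and 18 after thinning to 2000 UMIs, 2 and 16 with a pseudocount of 10 CPM, and 11 lower and 5 higher with immunoglobulin and T cell receptor genes not counted. Leaving out the few cells rich in globin or neutrophil transcripts gave 5 higher, and both changes together gave 0 higher and 1 lower; these were added after seeing the data.

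In control B220lo cells the share of 47.4% was 44.3% with a gate of 2 UMIs, 50.6% counting cells with no IGH contig, 51.4% counting those with none of at least 3 UMIs, and 40.0% at 4000 UMIs or more. Its 242 higher genes were 132 after thinning, 102 with a pseudocount of 10 CPM, 540 with at least 20 UMIs and 621 with no filter on low counts. Its 103 lower genes were 51 after thinning, 183 in UMI bins, 43 with a pseudocount of 10 CPM, 160 with no filter, 37 with immunoglobulin and T cell receptor genes not counted and 26 with the few cells left out as well. The cause of these shifts was not tested. Depth limits genes below 100 UMIs, where a 2-fold difference was not counted. The added 1 CPM also kept some low genes past 2-fold in plain CPM from being counted.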
